A study of Mus musculus with 10 samples.

Results

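The DKK and SFRP genes, with Wif1 and Kremen1, encode extracellular and cell-surface inhibitors of Wnt signaling. They were followed through 10 AOM/DSS colon tumors by gene name: 9 genes were looked for, and 7 of them (Dkk2, Dkk3, Kremen1, Sfrp1, Sfrp2, Frzb and Wif1) were among the 16875 gene names of the RNA-sequencing table, while Sfrp4 and Sfrp5 were not analysed here. All 7 had a mean of at least 0.5 FPKM, a read abundance corrected for transcript length and for the size of the library, and were tested. They were taken by name and not by a cut on their values, but with earlier results of these data known.

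The tumors were 5 control tumors, whose genotype is given as Wls flox/flox while their titles call them WT, and 5 Villin-WlscKO tumors (Villin-Cre ERT2 with Wls flox/flox), on a C57Bl6 background. By the genotype label both groups carried the floxed Wls allele. Azoxymethane (AOM), a colon carcinogen, and 3 cycles of 2% dextran sulfate sodium (DSS), which injures the colon lining, were given to mice that were between 6 and 10 weeks old at the start. In Villin-WlscKO mice, 5 injections of tamoxifen, the first 30 days before the tumors were taken, activated Cre in Villin-expressing intestinal epithelium, so that Wls, which carries Wnt proteins to the cell surface, was to be lost from epithelial and not from stromal cells. Control tumors are described as free of tamoxifen unless stated otherwise. The samples were macrodissected tumor pieces, and nothing says how many mice they came from, so p-values measure the spread between tumors.

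Wls, the deleted gene, averaged 72.9 ± 7.06 FPKM (SD, n = 5) in control tumors and 6.37 ± 4.89 FPKM (SD, n = 5) after deletion, with no overlap. The groups also differed in sex, although females are said to have been preferred. Xist, an RNA of the inactive X chromosome, had 439 to 701 FPKM in the Villin-WlscKO group and no more than 0.420 FPKM in control tumors, and the Y-chromosome gene Eif2s3y had 30.4 to 46.6 FPKM in control tumors against a highest value of 0.138 FPKM in the Villin-WlscKO group. Genotype, sex and tamoxifen cannot be told apart in any comparison of the groups. Villin-WlscKO tumors 2 and 3 stood apart: the summed level of 8 genes of stratified squamous epithelium was 1196 and 1527 FPKM in them and between 107 and 279 FPKM in the other tumors. Of these genes, Krt5 was at 469.5 and 669 FPKM in that pair and at most 0.315 FPKM elsewhere. Changes of single members that rest on these tumors are given with and without them. In whole tumor tissue, fewer cells of a type and less RNA per cell cannot be told apart. Epithelial markers, among them Epcam and Cdh1, were present in every tumor.

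Wnt proteins act by binding Frizzled receptors together with the co-receptors Lrp5 and Lrp6, which stabilizes β-catenin and lets TCF/LEF factors switch on target genes. Antagonists act on either side of this contact. Members of the SFRP family (Sfrp1, Sfrp2 and Frzb, also called Sfrp3) carry a domain related to the Frizzled ectodomain and bind Wnt proteins outside the cell, as Wif1 does through a different domain. Dkk2 binds Lrp5 and Lrp6, and Kremen1, a membrane protein and not a secreted one, is a receptor that forms a complex with DKK proteins and Lrp6. Dkk3 is the divergent member of the DKK family and is not a typical ligand of Lrp6. In the intestine several of these genes are known from stromal cells, and some are themselves targets of β-catenin, which makes them readouts as well as regulators of the pathway.

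RefSeq promoter windows (GRCm38.p6) were matched for 4 of the 7 genes, namely Dkk2, Sfrp2, Frzb and Wif1, and none for Dkk3, Sfrp1 and Kremen1. The 250 bases before the RefSeq start were searched for the core letters of a TCF/LEF site, CTTTGA or CTTTGT on both strands, and for TATAAA on the strand of the gene. The windows of Dkk2 and Sfrp2 are shown because they set the more abundant of these members beside a member near the limit of expression, and because neither gene passed the test between the groups. Dkk2 (chr3:132085042-132085291, plus strand) and Sfrp2 (chr3:83766071-83766320, plus strand) read as follows, with matched letters in capitals.
Dkk2: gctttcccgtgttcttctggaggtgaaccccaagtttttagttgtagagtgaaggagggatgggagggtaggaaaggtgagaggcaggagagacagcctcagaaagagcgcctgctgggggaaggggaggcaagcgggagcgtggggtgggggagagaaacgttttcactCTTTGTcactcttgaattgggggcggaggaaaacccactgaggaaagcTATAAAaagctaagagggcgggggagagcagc
Sfrp2: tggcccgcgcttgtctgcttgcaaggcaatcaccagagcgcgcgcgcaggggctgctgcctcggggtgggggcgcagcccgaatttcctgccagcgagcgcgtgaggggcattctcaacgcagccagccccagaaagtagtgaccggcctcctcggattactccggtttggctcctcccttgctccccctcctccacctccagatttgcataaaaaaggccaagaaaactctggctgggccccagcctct

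The Dkk2 window held CTTTGT from 80 to 75 bases before the start and TATAAA from 32 to 27 bases before it, and the Sfrp2 window held none of the letters searched. In the window of Frzb, TCAAAG, the reverse complement of CTTTGA, was found from 95 to 90 bases before the RefSeq start, in a stretch that GENCODE M21 places inside the gene, and in that of Wif1 no match was found. Of all 32851 promoter windows, 27.6% held CTTTGA or CTTTGT and 7.59% held TATAAA, so the letters are common and a match is a description only.

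Apart from Wif1, whose level is uncertain for a reason given with its values, the transcripts fell into an abundant and a scarce set. In control tumors the order of mean levels in FPKM was Dkk3 (50.4), Dkk2 (41.2), Kremen1 (16.5), Sfrp2 (1.54), Sfrp1 (1.10) and Frzb (0.788). The ranges of Dkk3 and Dkk2 overlapped, Kremen1 was separate from both its neighbours, and the scarce genes Sfrp2, Sfrp1 and Frzb could not be ordered beyond their spread. In Villin-WlscKO tumors the order was Dkk2 (32.9), Dkk3 (18.1), Kremen1 (11.1), Sfrp1 (4.75), Sfrp2 (2.31) and Frzb (0.854), and the ranges of Dkk2, Dkk3, Kremen1 and Sfrp1 did not overlap between neighbours in that order. Dkk3 had thus moved below Dkk2, and Sfrp1 was the first of the scarce genes.

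**Figure D1:**
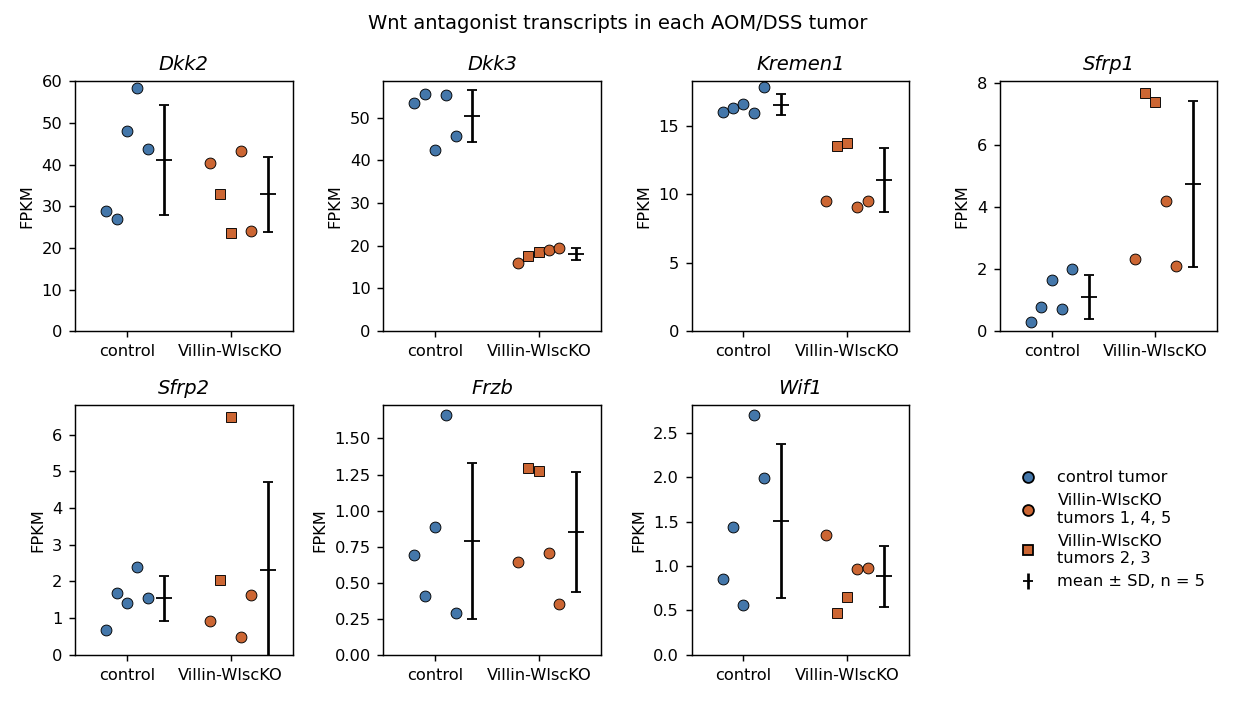
FPKM of each member (vertical axes, linear from 0, scaled per gene) in each of the 5 control and 5 Villin-WlscKO tumors; squares mark Villin-WlscKO tumors 2 and 3, and bars give the mean ± SD, that of Sfrp2 in Villin-WlscKO tumors being cut at 0. The groups do not overlap for Dkk3, Kremen1 and Sfrp1, and do for the other 4 genes.

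Between the groups, Dkk3 and Kremen1 were lower and Sfrp1 was higher in Villin-WlscKO tumors at an adjusted p under 0.05 (limma on log2(FPKM + 1), Benjamini-Hochberg adjustment over 16757 genes), and the other 4 members did not pass. Thus 2 of 7 members were lower, where 4.75% of all genes tested were, and 1 of 7 was higher, where 6.12% of all genes tested were. The same 3 genes were those with no overlap between the groups, which held for 10.1% of all genes, with 4.76% lower and 5.33% higher in Villin-WlscKO tumors. The median log2 change of the 7 members was -0.30, which is the value of Dkk2, a member that did not pass, against 0.0073 over all genes. Of the 7 members 4 had a change below 0 and 3 above it. These counts and this median include Wif1, whose value is uncertain, so its failure to pass does not show that it was unchanged. Each change is the mean log2(FPKM + 1) of Villin-WlscKO tumors less that of control tumors, which understates the change of scarce genes. A two-sided exact permutation test was also made for each of the 7 members, and with 5 against 5 tumors it cannot give a p below 0.00794.

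Among the DKK genes, Dkk3, on chromosome 7 from 112116017 to 112159057 (GRCm38, GENCODE M21, minus strand), was at 53.3, 55.6, 42.3, 55.3 and 45.6 FPKM in control tumors 1 to 5. Villin-WlscKO tumors 1 to 5 had 15.9, 17.7, 18.5, 19.0 and 19.4 FPKM. All Villin-WlscKO tumors lay within a narrow band far below the lowest control tumor, with a coefficient of variation of 7.68% against 12.1% in control tumors. The mean was lower by 64.1%, and the log2 change was -1.42 (standard error, SE, 0.093, 95% interval -1.63 to -1.22, limma adjusted p = 1.14e-05; p = 0.00794 by exact permutation). By p-value Dkk3 ranked 25 of 16757 gene names. Some of these names, also among those ranked above Dkk3, share the same values, and with identical entries counted once 15353 were tested. The pair of tumors with squamous keratins did not stand apart for Dkk3, and the change without them was -1.43. In 25 alternative fits Dkk3 passed 25 times, with changes between -1.48 and -1.31.

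Dkk2, on chromosome 3 from 132085292 to 132180304 (plus strand), was at 28.9, 27.0, 48.0, 58.4 and 43.8 FPKM in control tumors 1 to 5. In Villin-WlscKO tumors 1 to 5 it was at 40.4, 33.0, 23.5, 43.3 and 24.1 FPKM. The groups overlapped over most of their range, with coefficients of variation of 32.1% and 27.7%. The log2 change was -0.30 (SE 0.24, limma adjusted p = 0.489; p = 0.294 by exact permutation), and its 95% interval, -0.84 to 0.24, leaves room for a fall as well as for a small rise.

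Because both DKK transcripts were read in the same tumor, their ratio does not depend on how tumors are scaled to each other. The ratio of Dkk3 to Dkk2 lay between 0.882 and 2.06 in control tumors, where Dkk3 exceeded Dkk2 in 3 of 5 tumors. It lay between 0.393 and 0.806 in Villin-WlscKO tumors, where Dkk3 exceeded Dkk2 in 0 of 5. The groups did not overlap, and the mean log2 ratio differed by -1.16 (exact permutation test, p = 0.00794). Together the 2 DKK transcripts amounted to between 82.2 and 114 FPKM per control tumor and to between 42.0 and 62.3 FPKM per Villin-WlscKO tumor.

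**Figure D2:**
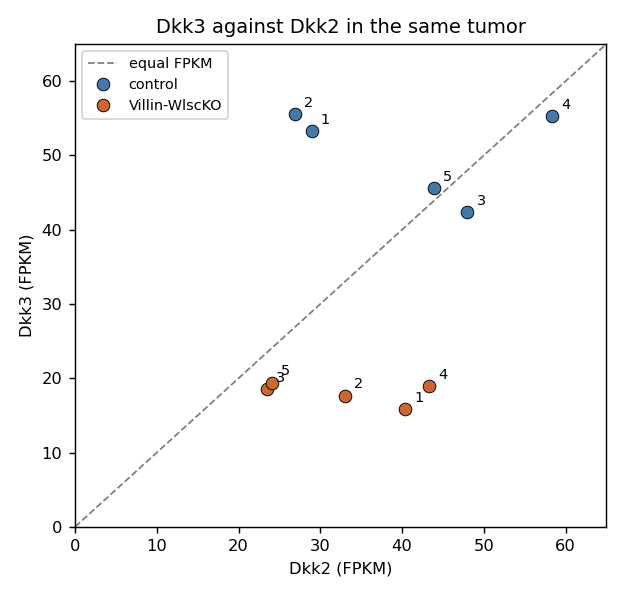
Dkk3 FPKM (vertical axis) against Dkk2 FPKM (horizontal axis) in each numbered tumor, with the dashed line of equal FPKM. The 5 Villin-WlscKO tumors lie below the line with Dkk3 between 15.9 and 19.4 FPKM, while 3 of 5 control tumors lie above it.

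Kremen1, the DKK co-receptor on chromosome 11 from 5191552 to 5261558 (minus strand), was nearly constant in control tumors, at 16.0, 16.3, 16.6, 15.9 and 17.8 FPKM in tumors 1 to 5. In Villin-WlscKO tumors 1 to 5 it was at 9.55, 13.5, 13.8, 9.05 and 9.54 FPKM. All 5 were below every control tumor, and within the group the higher values were those of tumors 2 and 3, the pair with squamous keratins. The coefficient of variation was 4.66% in control tumors and 21.1% in Villin-WlscKO tumors. The mean was lower by 33.0%, and the log2 change was -0.56 (SE 0.12, limma adjusted p = 0.0165; p = 0.00794 by exact permutation). Without tumors 2 and 3 the change was -0.76 (limma adjusted p = 0.00109), and with a score of the squamous genes as a covariate it was -0.68 (limma adjusted p = 0.000658). In 25 alternative fits Kremen1 passed 23 times, and it passed in each of the 10 fits that left out 1 tumor. The call depended on which scaling was used. It held with rescaling by median ratios (-0.57, limma adjusted p = 0.0138) and with quantile normalization (-0.59, limma adjusted p = 0.00871). When every tumor was set to an FPKM sum of 1000000, the change was -0.45 and did not pass (limma adjusted p = 0.0557). As a ratio to the median FPKM of the tumor it was -0.64 (exact permutation test, p = 0.00794). As a ratio to Dkk2 in the same tumor, which also carries the spread of Dkk2, it was -0.29 (exact permutation test, p = 0.397). The ratio of Kremen1 to Dkk3 in the same tumor was 0.477 to 0.766 in the Villin-WlscKO group and 0.288 to 0.393 in control tumors, so Kremen1 fell by less than Dkk3 (exact permutation test of the log2 ratio, p = 0.00794). An snRNA gene, Gm25142, lies within the span of Kremen1 on the other strand.

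Sfrp1 was the SFRP gene that rose. It lies on chromosome 8 from 23411502 to 23449632 (plus strand). In control tumors 1 to 5 it was at 0.300, 0.778, 1.65, 0.723 and 2.02 FPKM, and in Villin-WlscKO tumors 1 to 5 at 2.32, 7.70, 7.40, 4.20 and 2.12 FPKM. All Villin-WlscKO tumors were above every control tumor, but tumors 1 and 5 only just, and tumors 2 and 3 were the highest. The mean was 4.34 times that of control tumors, and the log2 change was 1.39 (SE 0.35, limma adjusted p = 0.0287; p = 0.00794 by exact permutation). Without tumors 2 and 3 the change was 0.92 and did not pass (limma adjusted p = 0.114), whereas with the squamous score as a covariate it was 1.13 and passed (limma adjusted p = 0.0426). The call also ended without any single one of 6 tumors, with limma adjusted p of 0.0629, 0.0678 and 0.0682 without control tumors 1, 2 and 4 and of 0.0561, 0.0673 and 0.0544 without Villin-WlscKO tumors 2, 3 and 4. The change stayed between 1.21 and 1.58 in the 10 fits that left out 1 tumor. As a ratio to Dkk2 in the same tumor, Sfrp1 did not overlap between the groups and was higher in Villin-WlscKO tumors (difference of mean log2 ratio 2.52, exact permutation test, p = 0.00794). This difference was not computed without tumors 2 and 3.

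**Figure D3:**
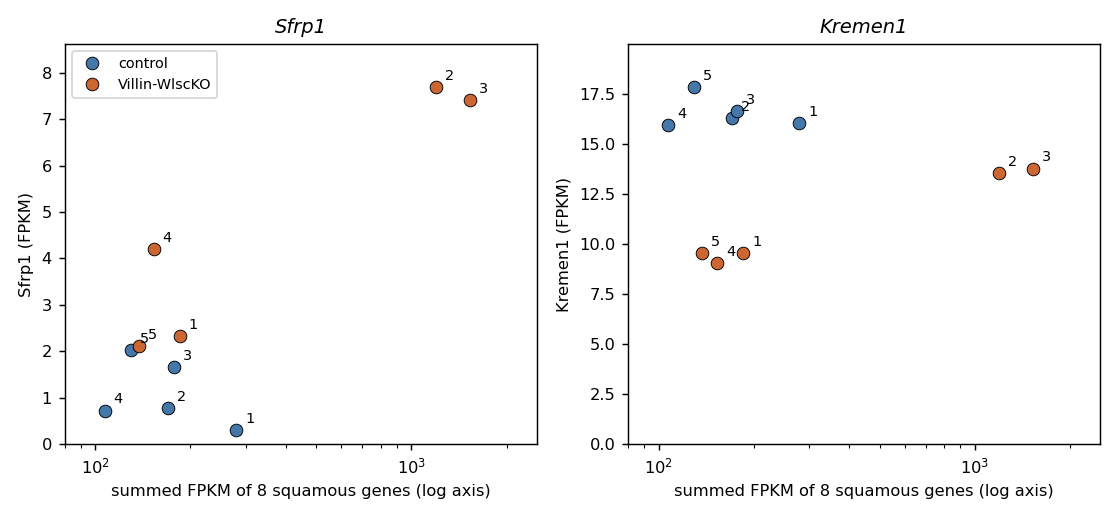
Sfrp1 and Kremen1 FPKM (vertical axes) against the summed FPKM of 8 genes of stratified squamous epithelium (horizontal log axis) in each numbered tumor. Villin-WlscKO tumors 2 and 3, at 1196 and 1527 FPKM on the horizontal axis, have the highest Sfrp1 of all tumors and the highest Kremen1 of the Villin-WlscKO tumors, which is still below every control tumor.

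The same pair of tumors also kept the most Wls of its group, 11.6 and 11.7 FPKM, against 2.03 to 3.61 FPKM in the other 3 Villin-WlscKO tumors. For several marker lists described below, the pair also had the highest sums of its group (tumor 2 given first). T cell genes were at 36.5 and 29.7 FPKM (14.5 to 18.2 in the other 3) and macrophage genes at 270 and 318 (129 to 211). Endothelial genes were at 91.0 and 78.2 FPKM (41.5 to 56.6) and fibroblast genes at 1226 and 704 (420 to 675). The smooth muscle sum was highest in tumor 4 (165 FPKM). Squamous genes, these markers and remaining Wls therefore moved together with Sfrp1 and Kremen1 within the group. Their part in the result cannot be told apart.

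Sfrp2, on chromosome 3 from 83766321 to 83774316 (plus strand), was at 0.682, 1.67, 1.41, 2.39 and 1.55 FPKM in control tumors 1 to 5 and reached 0.934, 2.03, 6.48, 0.484 and 1.63 FPKM after deletion of Wls, in Villin-WlscKO tumors 1 to 5. Apart from Villin-WlscKO tumor 3 the values of both groups were mixed. The log2 change was 0.17 (SE 0.38, limma adjusted p = 0.828; p = 0.754 by exact permutation), and it was -0.18 without tumor 3. An antisense gene, Gm26771 (1.77 FPKM in control and 0.348 FPKM in Villin-WlscKO tumors), overlaps Sfrp2, and since the use of strand in quantification is not stated, their reads may not be separated. Within a tumor, Sfrp1 exceeded Sfrp2 in 2 of 5 control tumors and in 5 of 5 Villin-WlscKO tumors, and the log2 ratio was higher by 2.07 (exact permutation test, p = 0.0397), with overlapping groups.

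Frzb, on chromosome 2 from 80411970 to 80447625 (minus strand), was at 0.695, 0.406, 0.886, 1.66 and 0.292 FPKM in control tumors 1 to 5. Villin-WlscKO tumors 1 to 5 had 0.645, 1.30, 1.28, 0.704 and 0.350 FPKM. The groups overlapped almost entirely, and the log2 difference was 0.071 (SE 0.22, limma adjusted p = 0.884; p = 0.754 by exact permutation). The summed level of Sfrp1, Sfrp2 and Frzb lay between 1.68 and 4.78 FPKM in control tumors (median 3.86). In the Villin-WlscKO group it lay between 3.90 and 15.2 FPKM (median 5.39), so the ranges overlapped. The highest sum was that of Villin-WlscKO tumor 3, where Sfrp1 was at 7.40 and Sfrp2 at 6.48 FPKM. The range was not computed without tumors 2 and 3.

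Wif1, on chromosome 10 from 121033960 to 121100650 (plus strand), was at 0.852, 1.44, 0.557, 2.70 and 1.99 FPKM in control tumors 1 to 5. Villin-WlscKO tumors 1 to 5 had 1.35, 0.472, 0.647, 0.968 and 0.975 FPKM. The groups overlapped, and the log2 difference of -0.36 (SE 0.24, limma adjusted p = 0.377) did not pass. What the Wif1 value measures is uncertain. A list of changed loci in the study's supplement gives Dkk3, Kremen1 and Sfrp1 the group means of the table, but gives Wif1 other means at a far higher level. The FPKM of Wif1 given here may therefore stand for only a small part of its transcripts, and its level cannot be ranked with those of the other members. For the same reason the test does not say whether Wif1 as a whole differed between the groups.

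**Figure D4:**
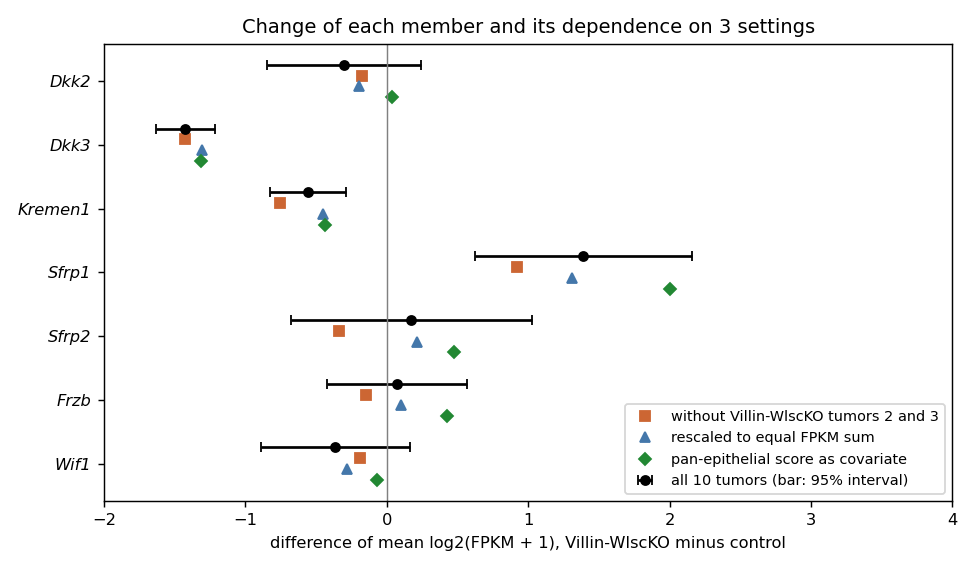
Log2 change on the FPKM + 1 scale (horizontal axis, Villin-WlscKO less control), for each member, with the 95% interval of limma (black) and the values without Villin-WlscKO tumors 2 and 3, with tumors rescaled to an equal FPKM sum, and with a pan-epithelial score as a covariate. Dkk3 lies between -1.43 and -1.31 in the 4 fits plotted, and the values of Dkk2, Sfrp2 and Frzb lie on both sides of 0.

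Several of the antagonists are known from stroma, so stromal and epithelial markers were read beside them. The summed level of 12 fibroblast genes, among them Col1a1, Dcn and Pdgfra, lay between 315 and 1084 FPKM in control tumors and between 420 and 1226 FPKM in the Villin-WlscKO group, and 1 of the 12 passed the threshold, Fbln1, which was higher. Of 8 smooth muscle genes 0 passed in limma, and their sum lay between 66.7 and 153 FPKM in control tumors and between 84.0 and 165 FPKM in the Villin-WlscKO group. With a fibroblast score as a covariate the changes were -1.42 for Dkk3, -0.57 for Kremen1 and 1.35 for Sfrp1, and all 3 passed. Of 8 pan-epithelial genes 8 had a change above 0 and 1, Krt20, passed, and their sum lay between 6105 and 8613 FPKM in control tumors and between 7459.9 and 9573 FPKM in the Villin-WlscKO group. A pan-epithelial score, the mean log2(FPKM + 1) of these genes, was then added as a covariate. It lay between 8.78 and 9.14 in control tumors and between 9.12 and 9.49 in Villin-WlscKO tumors. Score and group can therefore hardly be told apart. With this covariate, 330 genes passed in place of 1822. The SE rose from 0.093 to 0.14 for Dkk3, from 0.12 to 0.19 for Kremen1 and from 0.35 to 0.49 for Sfrp1. Dkk3 passed in that fit (-1.32, limma adjusted p = 0.00225), and neither Kremen1 (-0.44, limma adjusted p = 0.330) nor Sfrp1 (2.01, limma adjusted p = 0.0836) did. Of 7 T cell genes 4 were higher past the threshold, and their sum lay between 6.89 and 14.4 FPKM in control tumors and between 14.5 and 36.5 FPKM in the Villin-WlscKO group. The part of T cells in the changes of the members was not tested.

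Of the other Wnt antagonists, 10 of 17 listed genes were tested, of which 3 were lower past the threshold and 1 was higher, with a median log2 change of -0.57. Apcdd1, a membrane inhibitor, was at -1.92 (SE 0.29), Notum, a secreted enzyme that removes the lipid from Wnt proteins, at -0.93 (SE 0.12), and Znrf3, a ubiquitin ligase that clears Frizzled receptors, at -0.71 (SE 0.11). Dkkl1, a relative of the DKK genes, was at 0.57 (SE 0.11), from 0.661 to 1.48 FPKM. Kremen2, the paralog of Kremen1, went from 3.95 to 5.62 FPKM, which is 0.43 on the log2 scale (SE 0.18) and not past the threshold (limma adjusted p = 0.149). The difference between the 2 Kremen genes was not tested.

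Of 11 Wnt ligand genes 4 were lower past the threshold and 0 higher in limma, namely Wnt10a, Wnt6, Wnt7a and Wnt5b, with a median of -0.43 for the list. Of 15 Wnt receptor genes 2 were lower and 0 higher, with a median of -0.13. These were the Frizzled gene Fzd10 (-1.91, SE 0.21, limma adjusted p = 0.000358) and Ptk7, a co-receptor of Wnt signaling (-0.64, SE 0.11, limma adjusted p = 0.00458). Lrp5 and Lrp6, the receptors to which Dkk2 binds, were at -0.13 and -0.18 and did not pass (limma adjusted p = 0.391 and 0.160). Of 19 Wnt target genes, which include Notum, Apcdd1 and Znrf3 of the antagonist list, 6 were lower and 0 higher, with a median of -0.47. Over all genes tested 4.75% were lower and 6.12% higher. The 4 targets with the smallest p-values were Sp5, Notum, Axin2 and Tcf7. Changes were above 0 for 6 of the 19 targets, the largest that of Lgr5 (0.71, SE 0.35, limma adjusted p = 0.239), and did not pass.

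**Figure D5:**
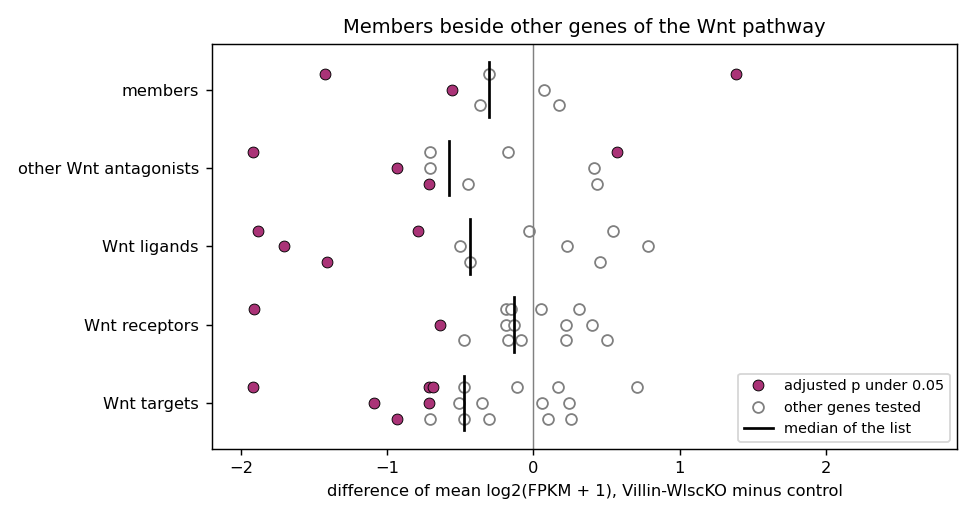
Log2 change on the FPKM + 1 scale (horizontal axis, Villin-WlscKO less control), for each tested gene of 5 lists, one line each, with genes at an adjusted p under 0.05 filled and the median of each list as a vertical bar. Members past the threshold lie on both sides of 0, at -1.42, -0.56 and 1.39. Those of the other Wnt antagonists lie at -1.92, -0.93 and -0.71, for genes also in the target list, and at 0.57 for the scarce Dkkl1 alone. Genes past the threshold in the ligand, receptor and target lists lie below 0.

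The genes with the most similar course over the 10 tumors were sought for the 6 members with a mean of at least 1 FPKM, by Pearson's r of log2(FPKM + 1) after each group's mean was taken off, as a description of these tumors and with no test. Each pair below was the highest of 16756 genes. For Dkk2 they were Ext1 (0.96) and Lman1 (0.95), for Dkk3 Nr2c1 (0.91) and Mapk1ip1 (0.89), and for Wif1 Plekhb1 (0.96) and Jrkl (0.94). The Wif1 pair follows the uncertain Wif1 value and may not follow Wif1 as a whole. For Sfrp1 they were Dmkn (0.95) and Vat1 (0.95). Dmkn, which encodes a secreted protein of the epidermis, reached 31.2 FPKM in tumor 3 and 23.7 FPKM in tumor 2 of the Villin-WlscKO group and at most 12.0 FPKM elsewhere. For Kremen1 they were Cyp2f2 (0.98), with 306 FPKM in tumor 3 and 298 FPKM in tumor 2 of the Villin-WlscKO group and at most 4.21 FPKM elsewhere, and AC120787.1 (0.98), so this likeness rests on that pair of tumors. For Sfrp2 they were Igkv14-130 (0.95), an immunoglobulin kappa variable gene at 27.3 FPKM in Villin-WlscKO tumor 3 and at most 6.68 FPKM in the others, and Abi3bp (0.94).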

How the data were processed

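Stranded mRNA libraries of 10 macrodissected tumors had been sequenced. Per the submitters' processing notes, the authors used FastQC, TopHat2 2.1.1 and the GRCm38.p5 assembly, and quantified transcripts with Cufflinks 2.2.1 and Cuffdiff, and deposited 1 FPKM value per gene name and tumor; the annotation release, the choice of gene names and the use of strand are not given in the sources used here. Tumors were grouped by their titles, and 0 columns were left over. FPKM carry no read counts, so the depth is unknown, and precision rests on the spread between tumors. Median FPKM per tumor lay between 11.3 and 12.2.

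The whole table was fitted with limma 3.58.1 (R 4.3.3) on log2(FPKM + 1), pseudocount 1, mean FPKM of at least 0.5, eBayes with trend, no covariate, and the method was tested on simulated data. Exact permutation tests and figures used Python 3.11.15. Positions are those of GENCODE M21, of the same assembly as the authors' build, and promoter letters those of RefSeq. The members, gene lists, alternatives and naming rule (all members, up to 4 genes past the threshold per pathway list, and the 2 most similar genes per member) were chosen with earlier results of these data known, and Kremen2, Lrp5, Lrp6 and the marker genes were named besides. Ratios between members, or to a tumor's median FPKM, were added after the data had been seen. Alternatives covered pseudocount, scaling, filter, eBayes options, weights, replicate block, covariates, identical entries and left-out tumors. The list of changed loci in the study's supplement served only to check that group means of members in the table belong to the same loci; its fold changes and q values were not used.

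Other lists were read as well. Of 7 endothelial, 5 enteroendocrine and 7 macrophage genes 0 passed in limma, and of 8 stratified squamous genes 1 was higher (Sfn). The result of 1 further marker list is not reported here.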

Additional observations from a re-analysis of the deposited data

Results flagged for a closer look

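In Villin-WlscKO tumors, Sfrp2 in tumor 3 was far from the rest of its group, at 6.48 FPKM, with the next tumor at 2.03 FPKM and the lowest at 0.484 FPKM. The gap to the next tumor was 0.743 of the range of the group, above the critical value of 0.71 for 5 samples. Such a gap was found in 1 of 14 groups examined (7 genes in 2 groups), and by chance about 1 group in 20 shows one. Without this tumor the log2 change of Sfrp2 was -0.18.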

How the results depend on the processing

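Dkk3 passed in each fit of log2 changes that was run. The number of members lower past the threshold was 1 in place of 2 with each tumor rescaled to an FPKM sum of 1000000 and with the pan-epithelial score, and the number higher was 0 in place of 1 with the pan-epithelial score, without Villin-WlscKO tumors 2 and 3 and, since Sfrp1 was then not tested, with a mean FPKM of at least 5; with 1 tumor left out it lay between 0 and 1. Over all genes, 330 passed with the pan-epithelial score (207 higher, 123 lower) and 1101 without Villin-WlscKO tumors 2 and 3 (655 higher, 446 lower), against 1822 (1026 higher, 796 lower). With equal FPKM sums 1373 were higher and 410 lower, with quantile normalization 893 and 1125, and the number lower with 1 tumor left out lay between 507 and 808, lowest without control tumor 2. Equal FPKM sums raised the median log2 change of all genes from 0.0073 to 0.097.

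Directions turned for members that had not passed: Dkk2 to 0.040 with the pan-epithelial score; Sfrp2 to -0.12 with the squamous score, -0.34 without Villin-WlscKO tumors 2 and 3 and -0.18 without tumor 3 (-0.18 to 0.40 with 1 tumor left out); and Frzb to -0.063 with the squamous score, -0.15 without Villin-WlscKO tumors 2 and 3, and to between -0.034 and -0.0038 without control tumors 2 or 5 or Villin-WlscKO tumors 2 or 3 (-0.0038, -0.034, -0.014 and -0.011; -0.034 to 0.23 with 1 tumor left out). The log2 ratio of mean FPKM was 2.12 for Sfrp1 and -0.77 for Wif1, and that of median FPKM 2.43 for Sfrp1 and -0.77 for Kremen1. Where no cause is named, the cause was not tested. The labels state no link between tumors of the same number, and whether they share an origin or a batch is not known. Their correlations after removal of the group means were 0.064, -0.087, 0.063, 0.10 and 0.16. Each tumor had 5 candidates in the other group, and 5 of 10 tumors matched their own number best. With the replicate block 1627 genes passed, and Dkk3, Kremen1 and Sfrp1 passed with limma adjusted p of 0.00132, 0.0364 and 0.0406. The depth is unknown, which limits the scarce members Sfrp1, Sfrp2 and Frzb most.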
